A study of Mus musculus with 9 samples.

Results

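The genes described here are 8 genes tied to the androgen response and to prostate identity, read by symbol from a table of 15384 protein-coding genes: Foxa1, Hoxb13, Tmprss2, Fkbp5, Slc45a3, Zbtb16, Sox9 and Pbsn. They were chosen by name, and all 8 have a row. The cells were MyC-CaP, a mouse prostate cancer line derived from a tumor of the Hi-Myc mouse, in which a probasin promoter drives MYC in prostate epithelium. Wells were held without serum and calcium for 6 to 12 hours, then given 100 ng/mL of recombinant mouse ASPN (asporin, a protein secreted by the tumor stroma), and RNA-Seq was done at 0, 12 and 24 hours with 3 libraries per time. The labels name ASPN as the treatment at all 3 times, and the 0 hour libraries, used as time 0 by the study, share the starvation before treatment with the others. The methods do not say that serum was returned, so the hours without serum may also rise with the time. No library of untreated cells at 12 or 24 hours was analysed here. The effect of ASPN and that of the hours in culture, or without serum, therefore cannot be told apart in any comparison below. All 9 libraries come from a single cell line plated in replicate wells, so the p-values measure the spread between these wells.

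Prostate epithelium depends on androgens, steroid hormones that drive a gene program through hormone response elements in DNA. Pioneer and partner factors shape that program: FOXA1 opens chromatin at its enhancers, and HOXB13 binds at many of the same sites. TMPRSS2, FKBP5, SLC45A3 and ZBTB16 are androgen-induced genes used as readouts of hormone activity in human prostate cancer, and probasin (Pbsn) is a secreted protein of the mouse prostate whose promoter serves as an androgen-driven model promoter. SOX9 is a transcription factor of prostate development.

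Of the 8 genes, 6 had enough counts to be tested (Foxa1, Hoxb13, Fkbp5, Slc45a3, Zbtb16 and Sox9), while Tmprss2 and Pbsn were close to absent. At 12 hours none of the 6 passed both thresholds, and the largest difference was a 1.37-fold higher level of Sox9. At 24 hours, Foxa1 fell to 39.0% of its time 0 level, Zbtb16 to 57.9% and Fkbp5 to 61.6%. Hoxb13 was 1.35-fold higher than at time 0, below the 1.5-fold threshold. A gene is called here when its Benjamini-Hochberg adjusted p is 0.05 or less and its fold change is at least 1.5, in edgeR's quasi-likelihood test over all tested genes.

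These calls must be read against a large shift of the whole transcriptome at 24 hours. At 12 hours 1.60% of the tested genes were called, at 24 hours 28.8%, and between 12 and 24 hours 25.7%. Of the 6 tested genes, 0 were called at 12 hours (0 also with DESeq2 and with limma-voom, 4 at an unadjusted p under 0.05), 3 at 24 hours and 3 between 12 and 24 hours, and all of these calls were decreases (16.8% of all tested genes were called lower at 24 hours, 15.3% between 12 and 24 hours). By the adjusted p alone, 1 of the 6 was higher and 2 were lower at 12 hours, beside 6.85% and 3.47% of all tested genes. At 24 hours 5 passed (70.9% of all tested genes), 1 higher and 4 lower, beside 34.4% and 36.5%. Between 12 and 24 hours all 6 passed (71.3% of all tested genes), 2 higher and 4 lower, beside 35.7% and 35.6%. Library totals were 41881191 to 52993821 counts. Mitochondrial genes held 2.60% to 2.85% of the counts at 0 and 12 hours and 0.113% to 0.203% at 24 hours, and the TMM scaling factors were 1.04 to 1.07 at 0 and 12 hours and 0.899 to 0.914 at 24 hours. The 10 most abundant genes held 7.51% to 8.02% of the counts at the earlier times and 9.81% to 10.1% at 24 hours. These values move with every difference at 24 hours below, and their part in the results was not tested.

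**Figure D1:**
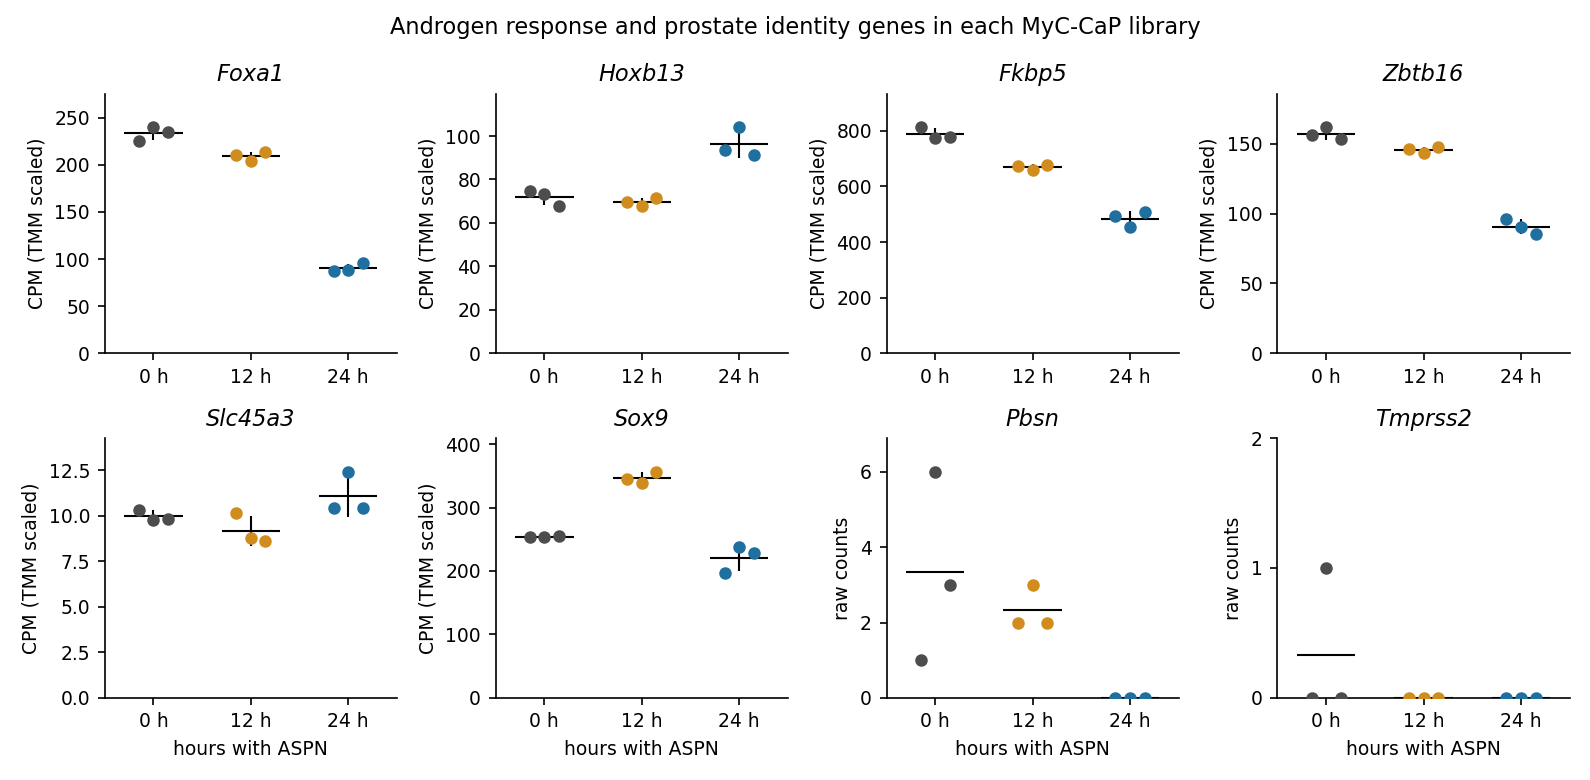
Level of the 8 genes in each library, as TMM-scaled CPM (counts scaled to library size), or as raw counts for Pbsn and Tmprss2, against hours with ASPN. Each point is 1 of 3 libraries, horizontal lines are means and vertical lines SD. Foxa1, Fkbp5 and Zbtb16 lie lowest at 24 hours, Hoxb13 lies highest at 24 hours, Sox9 peaks at 12 hours, and Pbsn and Tmprss2 reach at most 6 counts and 1 count.

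Foxa1, a partner factor, had the largest decrease of the 6 tested genes. Foxa1 (12: 57540628 to 57546916, minus strand, GRCm38) encodes a forkhead protein that binds nucleosomal DNA and opens it for other factors. Its level was 226, 240 and 235 CPM at time 0, 210.0, 204 and 213 CPM at 12 hours, and 87.7, 88.7 and 95.3 CPM at 24 hours. All 12 hour libraries lay below all time 0 libraries, and all 24 hour libraries lay below both. The difference at 12 hours was small but larger than the spread between libraries (log2 fold change -0.15, SE 0.03, adjusted p = 5.03e-03), under the 1.5-fold threshold. At 24 hours Foxa1 was 2.57-fold lower than at time 0 (log2 fold change -1.36, 95% interval -1.46 to -1.26, adjusted p = 6.39e-11), and 2.27-fold lower than at 12 hours (log2 fold change -1.18, SE 0.04, adjusted p = 7.52e-11). Only 3.58% of the tested genes had a lower log2 fold change at 24 hours. By 12 hours, 17.0% of the 24 hour difference in mean CPM was present. Because the RNA came from whole wells, a lower level in every cell and fewer cells that express a gene cannot be told apart here or below.

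The sequence before the start of the coding Foxa1 transcript is shown because Foxa1 moved most and because its own product recognizes a forkhead motif. The stretch below (240 bases of a 300 base RefSeq window, GRCm38.p6, minus strand, chr12:57546122-57546361) ends at the base before the first exon of the coding transcript and lies in an intron of a longer noncoding transcript of the gene. Capitals mark, at bases 110 to 116 of the stretch, the single match to the forkhead motif GTAAACA in the whole window (chr12:57546062-57546361), searched on both strands.
Foxa1: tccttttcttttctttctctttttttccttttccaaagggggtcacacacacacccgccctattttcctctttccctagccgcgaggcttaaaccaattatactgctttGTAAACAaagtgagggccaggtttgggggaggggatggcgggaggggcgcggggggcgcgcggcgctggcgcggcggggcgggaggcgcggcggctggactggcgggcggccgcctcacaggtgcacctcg
This motif was found in 3.65% of 32851 promoter windows of 300 bases. Windows were given for 5 of the 8 genes (Foxa1, Fkbp5, Slc45a3, Tmprss2 and Pbsn), and Foxa1 was the only one of these 5 whose window held the forkhead letters.

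Hoxb13 went the other way. Hoxb13 (11: 96194316 to 96197447, plus strand) encodes a homeodomain factor restricted to the prostate and the hindmost body. Its level was 74.5, 73.1 and 68.0 CPM at time 0, 69.5, 67.6 and 71.5 CPM at 12 hours, and 93.8, 104 and 91.4 CPM at 24 hours. The libraries of 0 and 12 hours overlapped, while all 24 hour libraries lay above them. Hoxb13 did not differ at 12 hours beyond the spread (log2 fold change -0.04, 95% interval -0.13 to 0.04, adjusted p = 0.615). At 24 hours it was 1.35-fold higher than at time 0 (log2 fold change 0.43, SE 0.06, adjusted p = 1.17e-05) and 1.41-fold higher than at 12 hours (0.49, SE 0.05, adjusted p = 1.13e-06), both under the 1.5-fold threshold. As a result the ratio of Foxa1 to Hoxb13 CPM was 3.26 ± 0.215 at time 0, 3.01 ± 0.0242 at 12 hours and 0.944 ± 0.0955 at 24 hours (SD, n = 3). The ratio within a library does not depend on the scaling between libraries, and its 24 hour values, 0.853 to 1.04, lay below all earlier ones, 2.98 to 3.46.

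**Figure D2:**
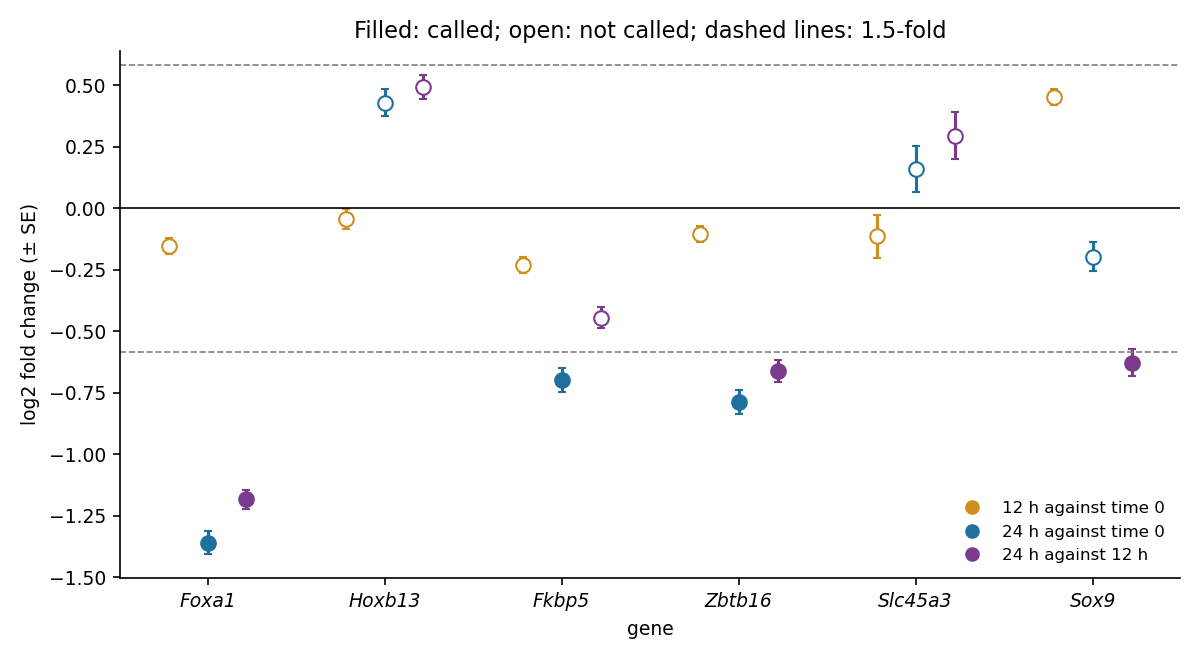
Log2 fold change of the 6 tested genes in the 3 comparisons, with bars of 1 SE. Filled points were called and dashed lines mark 1.5-fold. Foxa1 shows the largest decreases, -1.36 and -1.18, no point at 12 hours against time 0 is filled, and Hoxb13 and Slc45a3 have unfilled points in all comparisons.

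The androgen-induced genes among the 8 did not move as a block. Fkbp5 and Zbtb16 fell, Slc45a3 did not pass the test against time 0, and Tmprss2 and Pbsn could not be followed.

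Fkbp5 (17: 28399094 to 28517527, minus strand) encodes FKBP51, a cochaperone of steroid receptors that androgens and glucocorticoids induce. Its level was 812, 776 and 778 CPM at time 0, 674, 659 and 676 CPM at 12 hours, and 492, 453 and 508 CPM at 24 hours. The 3 times did not overlap and decreased in order. At 12 hours Fkbp5 was 1.17-fold lower than at time 0 (log2 fold change -0.23, SE 0.03, adjusted p = 1.02e-04) and at 24 hours 1.62-fold lower (log2 fold change -0.70, SE 0.05, adjusted p = 2.70e-08). From 12 to 24 hours it decreased 1.36-fold (log2 fold change -0.45, SE 0.04, adjusted p = 6.32e-07), under the threshold. In Fkbp5, 39.1% of the 24 hour difference in mean CPM was present by 12 hours, against 17.0% in Foxa1 and 17.1% in Zbtb16.

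Zbtb16 (9: 48654297 to 48836222, minus strand) encodes PLZF, a zinc finger repressor that androgens induce in prostate cells. Its level was 157, 162 and 153 CPM at time 0, 146, 144 and 148 CPM at 12 hours, and 96.3, 90.3 and 85.7 CPM at 24 hours. The 12 hour libraries lay just below those of time 0, and the 24 hour libraries far below both. At 12 hours the difference did not pass the adjusted p (log2 fold change -0.10, SE 0.03, adjusted p = 0.0549). This depended on the setting: over the alternative tests, scalings and filters the adjusted p ran from 0.0201 to 0.169. At 24 hours Zbtb16 was 1.73-fold lower than at time 0 (log2 fold change -0.79, SE 0.05, adjusted p = 9.40e-09) and 1.58-fold lower than at 12 hours (log2 fold change -0.66, SE 0.04, adjusted p = 2.37e-08).

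The calls of Fkbp5 and Zbtb16 at 24 hours depended on how the counts were corrected. With offsets for transcript length and GC content, Foxa1 remained called at 24 hours (log2 fold change -1.19), but Fkbp5 (-0.56) and Zbtb16 (-0.50) no longer passed 1.5-fold, so that 1 of the 6 genes was called.

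Slc45a3 (1: 131962967 to 131982969, plus strand) encodes prostein, a transporter-like membrane protein. Its level was low, with 10.3, 9.78 and 9.81 CPM at time 0, 10.1, 8.80 and 8.62 CPM at 12 hours, and 10.4, 12.4 and 10.4 CPM at 24 hours. At 24 hours 1 library stood above the other two, and the lowest library lay just above the highest of time 0. The difference from time 0 was not significant at 12 hours (log2 fold change -0.11, 95% interval -0.30 to 0.07, adjusted p = 0.501) or at 24 hours (0.16, 95% interval -0.04 to 0.36, adjusted p = 0.142), and with total-count scaling the 24 hour value turned to -0.06, while with the length and GC correction it was 0.34 (adjusted p = 0.00289). The 24 hour level was above that of 12 hours (log2 fold change 0.30, SE 0.10, adjusted p = 0.0146), under the threshold. The noncoding gene Gm29103 overlaps 481 bases of its exons on the same strand, 13.5% of their length, so reads there cannot be told apart.

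Tmprss2 (16: 97564682 to 97611195, minus strand), a membrane serine protease gene whose promoter is fused to ERG in many human prostate tumors, had 1 count in the 9 libraries together, in replicate 2 of time 0. A limit of 3 counts corresponds to 0.0551 to 0.0733 CPM in these libraries, so Tmprss2 mRNA was not detectable above that level.

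Pbsn (X: 77837901 to 77853623, minus strand) had 1, 6 and 3 counts at time 0, 2, 3 and 2 counts at 12 hours, and 0, 0 and 0 counts at 24 hours. The 24 hour libraries were all at 0, but the levels before were near the limit of 3 counts, so no fold is given. With no filter on low counts, Pbsn passed edgeR's test at 24 hours against time 0 (adjusted p = 0.0412) and not against 12 hours (adjusted p = 0.0776). The Pbsn window is shown because it held AGAACA, the hexamer of the androgen and glucocorticoid response element, found in 19.0% of the 32851 windows. The window holds 250 bases before and 50 bases after the RefSeq start. The stretch (RefSeq, GRCm38.p6, minus strand, chrX:77853578-77853607) lies before that start, but inside the gene as placed by GENCODE (to 77853623). Capitals mark the hexamer.
Pbsn: caactgggatgcAGAACActgctcacgcca
The same window held 1 match to CAATAAA, the HOXB13 core, found in 4.60% of windows. The full response element (AGAACA, 3 free bases, then TGTTCT) was in 3 of the 32851 windows and in none of those of the 5 genes, and no window of Fkbp5, Slc45a3 or Tmprss2 held any of the 4 motifs, all searched on both strands.

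Sox9 was highest at 12 hours. Sox9 (11: 112782224 to 112787760, plus strand) had 253, 254 and 255 CPM at time 0, 345, 338 and 356 CPM at 12 hours, and 197, 238 and 228 CPM at 24 hours. The 12 hour libraries lay above all others, and the 24 hour libraries, which were more spread, lay below time 0. At 12 hours Sox9 was 1.37-fold higher (log2 fold change 0.45, SE 0.03, adjusted p = 2.94e-08), under the 1.5-fold threshold, and 3.40% of the tested genes had a higher log2 fold change. At 24 hours it was slightly lower than at time 0 (log2 fold change -0.20, SE 0.06, adjusted p = 7.97e-03), a difference that ran from -0.42 with total counts to -0.08 with the length and GC correction (adjusted p = 0.233), and 1.54-fold lower than at 12 hours (log2 fold change -0.63, SE 0.06, adjusted p = 2.94e-07). This last call was lost without replicate 1 of 24 hours (log2 fold change -0.55) and with the length and GC correction (-0.50). The ratio of Sox9 to Foxa1 CPM was 1.09 ± 0.0330 at time 0, 1.66 ± 0.0136 at 12 hours and 2.44 ± 0.220 at 24 hours, with no overlap between times.

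The order of the genes by level changed with time. By CPM per kb of exon at time 0, Fkbp5 came first (83.3 ± 2.15), followed by Foxa1 (70.2 ± 2.18), Sox9 (61.4 ± 0.167), Hoxb13 (32.6 ± 1.55), Zbtb16 (29.8 ± 0.798) and Slc45a3 (2.80 ± 0.0890), and no neighbors in this order overlapped. At 12 hours Sox9 (83.8 ± 2.20) stood above Fkbp5 (70.7 ± 0.989) and Foxa1 (62.9 ± 1.36). At 24 hours Sox9 (53.4 ± 5.12) and Fkbp5 (51.2 ± 3.02) overlapped, and Hoxb13 (43.7 ± 3.04) stood above Foxa1 (27.2 ± 1.25). These are SD over 3 libraries and levels per exon length.

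At 12 hours 4 of the 6 genes had libraries that did not overlap with time 0 (27.0% of all tested genes). At 24 hours this held for 6 of 6 (73.9% of all tested genes), 4 below (38.3% of all tested genes) and 2 above (35.6%). Between 12 and 24 hours the 4 below stood beside 38.5% of all tested genes and the 2 above beside 35.5%. The median log2 fold change of the 6 genes at 24 hours was -0.45, beside -0.02 over all tested genes. With total counts in place of TMM factors the median of all genes shifted to -0.24, with Foxa1 at -1.58 and Hoxb13 at 0.21.

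**Figure D3:**
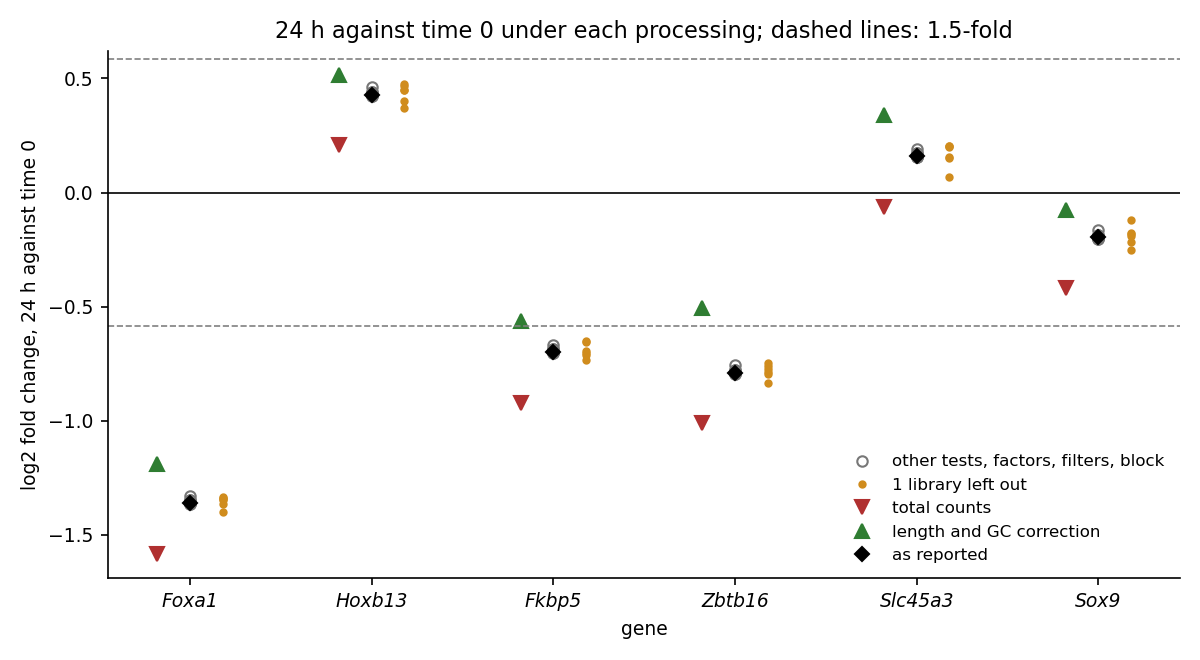
Log2 fold change at 24 hours against time 0 of the 6 tested genes under each way of processing the counts. Black diamonds are the values reported, gray circles other tests, scaling factors, filters and the replicate block, orange dots fits with 1 library left out, and triangles the scalings that moved the values most. Total counts shift every gene down and the length and GC correction shifts every gene up, Fkbp5 and Zbtb16 cross the dashed 1.5-fold line with the latter, and Slc45a3 crosses 0 with total counts.

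Over the 9 libraries, log2 CPM of Foxa1 ran with that of Zbtb16 (r = 0.986) and Fkbp5 (0.964) and against that of Hoxb13 (-0.947). The libraries of 1 time share their treatment and scaling, so these values mostly restate the contrast of 24 hours with the earlier times, and 2779 of 10357 genes had r above 0.9 with Foxa1. The genes most like Foxa1 were Jarid2 (r = 0.999) and Ncaph (0.998). For Hoxb13 these were 2610021A01Rik (0.995) and Gtf2e2 (0.989), for Fkbp5 Ccdc92 and Reep6 (both 0.996), and for Zbtb16 Iqce and Adarb1 (both 0.998). Sox9 and Slc45a3 had fewer like genes, with 101 and 6 genes above 0.9. Nfatc1 (0.985) and Sertad2 (0.986) came closest to Sox9, and Rcbtb2 (0.944) and Dhx34 (0.920) to Slc45a3.

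The wider androgen response was examined with a list of 47 genes, of which 40 had a row and 35 were tested. Sgk1 is in this list and in the glucocorticoid list below, and counts in both. At 12 hours 1 gene was called (2.86% of the 35 tested, beside 1.60% of all tested genes, where 171 of the 182 calls were higher), Steap4, a metalloreductase, which was 2.01-fold higher (log2 fold change 1.01, SE 0.06, adjusted p = 1.76e-09). At 24 hours 11 of 35 were called (31.4%, beside 28.8% of all tested genes), 2 higher and 9 lower (12.0% and 16.8% of all tested genes), and the median log2 fold change was -0.14. The 2 higher were Aldh1a3, a retinaldehyde dehydrogenase (1.14, adjusted p = 1.37e-04, at 1.77 to 3.89 mean CPM), and Ell2, an elongation factor (0.83, adjusted p = 1.19e-07). The lowest were Bmpr1b, a BMP receptor (-1.63, adjusted p = 8.63e-10), and Camkk2, a kinase upstream of AMPK (-1.10, adjusted p = 1.33e-07). Steap4 had 163 ± 1.80 CPM at time 0, 326 ± 38.0 at 12 hours and 113 ± 10.96 at 24 hours, and its 24 hour libraries lay below those of time 0 (log2 fold change -0.53, under the threshold, but called with total counts at -0.75 and with the length and GC correction at -0.60).

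Glucocorticoid-induced genes were looked at because they share the response element and several targets, Fkbp5, Zbtb16, Sgk1 and Tsc22d3 among them. All 17 genes of that list were tested. Like the other lists, it was written with earlier results of these data known, so the shares called only describe it. At 12 hours 4 were called (23.5%, beside 1.60% of all tested genes), all higher: Lcn2 (lipocalin 2, 2.39), Nfkbia (IκBα, 2.23), Cebpd (1.30) and Angptl4 (0.65, in log2 fold change). At 24 hours 6 were called higher and 5 lower, 64.7% of the list beside 28.8% of all tested genes (12.0% higher and 16.8% lower), with a median of 0.23. Lcn2 had 9.86 ± 1.14 CPM before, 51.7 ± 8.81 after 12 hours and 207 ± 15.7 after 24 hours (SD, n = 3), and Dusp1, a MAP kinase phosphatase, rose from 30.7 ± 2.04 to 152 ± 10.5 CPM at 24 hours. Sgk1, a serum and glucocorticoid regulated kinase, fell from 1001 ± 13.8 to 475 ± 27.7 CPM at 24 hours (log2 fold change -1.07), and Tsc22d3, the gene of the glucocorticoid-induced leucine zipper, from 338 ± 11.02 to 182 ± 2.36 CPM (-0.89). Lcn2, Nfkbia, Cebpd and Dusp1 are also known targets of inflammatory and growth factor signals.

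**Figure D4:**
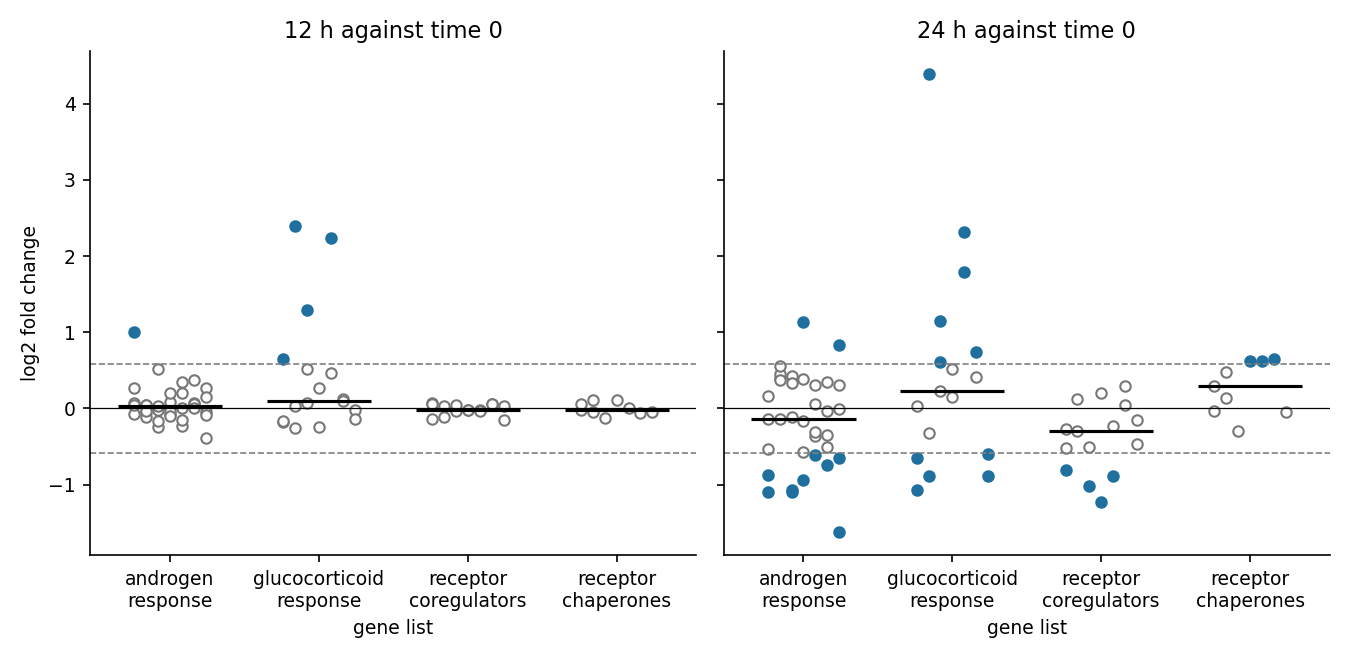
Log2 fold change of each tested gene of 4 lists, at 12 hours (left) and 24 hours (right) against time 0. Filled points were called, horizontal bars are list medians and dashed lines mark 1.5-fold. The 12 hour panel holds 5 called genes, all higher, and at 24 hours the androgen and glucocorticoid lists hold called genes in both directions.

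Coregulators and chaperones of steroid receptors were counted in the same way. Of 15 tested coregulators, 0 were called at 12 hours (edgeR, DESeq2 and limma-voom alike, 4 at an unadjusted p under 0.05). At 24 hours 4 were lower and 0 higher, 26.7% of those tested beside 28.8% of all tested genes called and 16.8% called lower, with a median of -0.29. The acetyltransferase Ep300 fell from 130 ± 4.46 to 55.2 ± 2.58 CPM (log2 fold change -1.23, adjusted p = 2.21e-10) and its paralog Crebbp from 60.7 ± 0.619 to 29.9 ± 1.44 CPM (-1.02, adjusted p = 1.50e-09). The other two were Grhl2 (-0.88), an epithelial transcription factor, and the corepressor Tle3 (-0.81). With the length and GC correction Tle3 was under 1.5-fold (-0.48). Gata2, a pioneer factor, had 0 to 4 counts per library and was not tested. Of the 9 chaperones and cochaperones, all tested, 3 were called higher at 24 hours and 0 lower, beside 12.0% of all tested genes called higher: Hspa8 (log2 fold change 0.64), Hsp90aa1 (0.62) and Hsp90ab1 (0.62). With total-count scaling none of these 3 passed 1.5-fold (0.42, 0.40 and 0.40), and with the length and GC correction Hsp90aa1 did not (0.54). At 12 hours 0 chaperones were called by edgeR, DESeq2 or limma-voom (3 at an unadjusted p under 0.05). Genes such as Hspa8 and Hsp90ab1 have processed pseudogenes, and how shared reads were counted is not given in the sources used here.

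Among steroid receptor genes, Esr1, the estrogen receptor alpha gene, had 18.5 ± 1.01 CPM at time 0, 17.3 ± 0.612 at 12 hours and 10.7 ± 0.525 at 24 hours (SD, n = 3), and was 1.72-fold lower at 24 hours than at time 0 (adjusted p = 1.01e-06). The mineralocorticoid receptor gene Nr3c2 had 0 to 6 counts per library and was not tested. Nr3c1, Pgr and Esr2 were not analysed here.

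Of 14 genes of the secretory prostate 6 had a row and 3 were tested, of which 2 were called lower at 24 hours (16.8% of all tested genes were called lower, 28.8% called). Apof was 2.66-fold lower (log2 fold change -1.41, adjusted p = 1.09e-08). Klk1b27, of the kallikrein family whose near-identical members can share reads, was lower by -0.85 (SE 0.24, adjusted p = 6.35e-03) and is uncertain. The third, Tgm4, a prostate transglutaminase, had 0.760 CPM at time 0 and 0.879 at 24 hours (log2 fold change 0.20, 95% interval -0.55 to 0.95, adjusted p = 0.621). Of 14 relatives of the 8 genes 9 had a row and 4 were tested, of which 2 were called lower at 24 hours, again beside 16.8% of all tested genes: Slc45a4 (-1.08, adjusted p = 2.60e-08) and Sox4 (-0.99, adjusted p = 5.92e-10). The other two, Fkbp4 (-0.29) and Fkbp10 (-0.25, adjusted p = 4.05e-04), passed the adjusted p alone and were under 1.5-fold. Foxa3, Sox10, Slc45a1 and Tmprss4 had at most 10 counts in any library.

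Epithelial markers were expressed in part. The luminal genes Cldn3 (610.3 ± 14.3 CPM at time 0), Krt19 (89.4 ± 13.4), Cd24a and Krt8 were expressed, whereas the defining epithelial genes Cdh1 and Epcam had at most 10 counts and 1 count per library, and Krt18 had 2 to 22. Krt19 was 1.55-fold higher at 24 hours (log2 fold change 0.64, adjusted p = 1.32e-05), a call lost with total counts (0.42) and without replicate 3 of time 0 (0.57). The summed level of the 9 luminal genes ran from 767 to 824 CPM at time 0 and from 771 to 796 CPM 12 hours later, and from 926 to 1006 CPM after 24 hours. The basal keratins Krt14 (6 counts at time 0, 65 at 24 hours over 3 libraries) and Krt17 (19 and 94 counts) passed the filter on low counts only in the comparisons that hold the 24 hour libraries, where they are high, so the direction of any call was largely set by the filter. Krt5 had at most 1 count, and the 5 basal genes summed to 97.2 to 129 CPM at time 0 and 113 to 126 at 24 hours, nearly all from Krt15. Of 4 neuroendocrine genes with a row, Chga, Chgb and Syp had at most 10 counts in any library, while the adhesion gene Ncam1 was expressed at 64.1 ± 3.93 CPM at time 0, 63.2 ± 3.29 at 12 hours and 62.8 ± 3.40 at 24 hours, and the 4 summed to 59.1 to 68.2 CPM. Fibroblast genes, mostly Pdgfra, summed to 13.0 to 14.1 CPM at time 0 and 9.09 to 10.3 CPM at 24 hours. Dcn had 27 counts at time 0 and 57 at 24 hours in overlapping libraries. It was called higher at 24 hours by edgeR, but not by DESeq2 or limma-voom, and passed the low-count filter only in comparisons that hold the 24 hour libraries. Leukocyte genes summed to 0.27 to 0.82 CPM and endothelial genes to 0.04 to 0.12 CPM. Genes of the seminal vesicle list were not analysed here. The part of these markers in the changes of Foxa1 and the other genes was not tested.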

How the data were processed

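RNA-Seq of 9 MyC-CaP libraries (3 each at 0, 12 and 24 hours) was analysed. The authors deposited raw counts of read pairs per protein-coding gene, made from paired-end reads of a poly(A) library with Cutadapt, STAR and featureCounts on GRCm38 with GENCODE annotation, and the submitters' processing notes also name FastQC 0.11.9 and DESeq2. Samples were grouped by the time in their labels. From the counts, pairwise comparisons were made with edgeR 4.0.16 (R 4.3.3; filterByExpr, TMM factors, quasi-likelihood test, Benjamini-Hochberg adjustment over all tested genes), and a gene was called at an adjusted p of 0.05 or less with a fold change of at least 1.5. DESeq2 1.42.0, limma-voom (limma 3.58.1), other scaling factors, filters, a length and GC correction, a replicate block and leaving out each library were the alternatives. CPM are TMM scaled, likeness used log2 CPM with a prior count of 2 over genes with a mean of at least 50 counts, and lengths are union exons of GENCODE M21, which matched 15374 of the 15384 genes by identifier. Sequences are from RefSeq. Library totals of 41881191 to 52993821 counts limit each gene's precision, and a limit of 3 counts was used where a gene was at 0, which covers counting error only. No pair of replicate libraries agreed within sampling noise (chi-square per degree of freedom 3.41 to 17.5). The genes described and the gene lists were chosen with earlier results of these data known. Named from each list were the 2 highest and 2 lowest called genes at 24 hours against time 0, the called genes at 12 hours where there were 4 or fewer, and the steroid receptors. Some genes of these lists are not reported here. For each tested gene, the 2 most alike genes were named.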

Additional observations from a re-analysis of the deposited data

Results flagged for a closer look

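Between 12 and 24 hours, 23 of the 31 named genes tested were called, beside 25.7% of all tested genes (edgeR, adjusted p of 0.05 or less and at least 1.5-fold, values in log2 fold change of 24 against 12 hours). The genes beyond the 8 were mostly named for their values at 12 or 24 hours in these same libraries, so this count is in part fixed by their choice and is a description. Among the genes described, these were Foxa1 (-1.18), Zbtb16 (-0.66) and Sox9 (-0.63). The estrogen receptor gene Esr1 fell too (-0.67). Of the androgen response list, Ell2 (0.59) and Aldh1a3 (1.08) rose and Bmpr1b (-1.21), Camkk2 (-1.15) and Steap4 (-1.51) fell. Of the glucocorticoid-induced genes, Dusp1 (1.87) and Lcn2 (2.02) rose and Sgk1 (-0.88), Tsc22d3 (-0.62) and Angptl4 (-0.60) fell. The coregulators Grhl2 (-0.84), Tle3 (-0.84), Crebbp (-0.96) and Ep300 (-1.19) fell, and the chaperones Hspa8 (0.72) and Hsp90ab1 (0.63) rose. Apof (-1.12), Slc45a4 (-1.08) and Sox4 (-0.97) fell. Some of these calls were close to 1.5-fold. Ell2 was under it with total counts (0.37), a minimum of 10 counts (0.58), all 9 libraries in one fit (0.57) and without replicate 1 or 3 of 12 hours or replicate 2 of 24 hours (0.54 to 0.57). Angptl4 was under it with upper-quartile factors (-0.58), the length and GC correction (-0.51) and without replicate 2 of 12 hours (-0.56) or replicate 1 of 24 hours (-0.54). The length and GC correction also left Zbtb16 (-0.38), Sox9 (-0.50), Esr1 (-0.53) and Tle3 (-0.51) under it, total counts Hspa8 (0.50) and Hsp90ab1 (0.41), and leaving out replicate 1 of 24 hours Sox9 (-0.55). Groups of 3 libraries are too small for a search for outlying libraries. The 24 hour libraries also differ from the others in mitochondrial share and scaling factor, and the part of these in the 23 values was not tested.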

How the results depend on the processing

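Foxa1 stayed called at 24 hours against time 0 under all 11 alternatives (-1.58 to -1.19). Among these, the adjusted p alone reuses the main fit without the fold threshold, so it could not have removed the call. The length and GC correction left 1 of the 6 genes called at 24 hours against both earlier times, with Zbtb16 at -0.38 and Sox9 at -0.50 against 12 hours. It also left 0 steroid receptors called against 12 hours (1 of 1 tested otherwise, Esr1). With it, 2 of 6 luminal genes were called against each earlier time and 2 of 3 secretory genes against 12 hours. Over all genes it called 3001 of 11440 against time 0 and 2630 of 11390 against 12 hours. With total counts, Fkbp5 was called against 12 hours (-0.67). At 24 hours against time 0, 7 of 15 coregulators, 0 of 9 chaperones and 0 of 6 luminal genes were called, beside 3706 of all 11444 tested genes. Against 12 hours 0 of 9 chaperones and 2 of 3 secretory genes were called, beside 3314 of 11394. DESeq2, RLE and upper-quartile factors each gave 2 of 6 luminal genes at 24 hours against time 0, beside 3260, 3305 and 3312 of all 11444 tested genes. A minimum of 10 counts gave 0 luminal genes against 12 hours, beside 2775 of 10890. By the adjusted p alone, in the order 12 hours, 24 hours and 24 against 12 hours, the calls were 3, 5 and 6 of the 6 genes, 13, 30 and 30 of 35 genes of the androgen response list, 2, 14 and 14 of 15 coregulators, 3, 7 and 7 of 9 chaperones and 1, 4 and 4 of 4 relatives, beside 10.3%, 70.9% and 71.3% of all tested genes. They were 12 glucocorticoid-induced genes at 12 hours and 15 between 12 and 24 hours, 1 secretory gene at 12 hours, and 4 and 5 luminal genes in the later comparisons, and Hoxb13 (0.49), Fkbp5 (-0.45) and Slc45a3 (0.30) passed between 12 and 24 hours.

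Small values changed sign. At 12 hours Hsp90ab1 was at -0.0078 with upper-quartile factors, -0.013 with total counts and -0.0066 with the length and GC correction, and Slc45a4 at -0.00068 with the latter. At 24 hours Slc45a3 (-0.062) and Angptl4 (-0.19) turned negative with total counts, and Cebpd turned to 0.00048 against 12 hours with the length and GC correction. Without 1 library at a time, the 12 hour values ran from -0.030 to 0.23 in Aldh1a3, -0.052 to 0.0071 in Grhl2, -0.044 to 0.0069 in Ep300, -0.017 to 0.039 in Hsp90ab1, -0.016 to 0.068 in Slc45a4 and -0.031 to 0.019 in Sox4, and the 24 hour value of Angptl4 from -0.0043 to 0.086. Leaving out 1 library gave 2 to 3 of the 6 genes called between 12 and 24 hours (Sox9 -0.68 to -0.55), 0 to 2 luminal genes at 24 hours against time 0 and 1 to 2 against 12 hours, and 1 to 2 secretory genes against 12 hours. The luminal calls against 12 hours include Krt18 (17 counts over the 12 hour libraries, 56 at 24 hours), which passed the low-count filter only in comparisons that hold the 24 hour libraries, so its direction was largely set by the filter. The cause was not tested.

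Over all genes, 1374 were higher and 1924 lower at 24 hours against time 0, 698 and 3008 with total counts and 1504 and 1497 with the length and GC correction. Against 12 hours these were 1184 and 1740, 484 and 2830, and 1322 and 1308. Samples with the same replicate number did not deviate together (correlations -0.0978 to 0.0556). With the replicate block 172, 3247 and 2926 genes were called, and 0, 3 and 3 of the 6 genes. Depth limits Pbsn and Tmprss2, which cannot be followed at these totals.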

Other observations

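Fkbp4, which encodes FKBP52, the cochaperone counterpart of FKBP51, was chosen after its values were seen and had a log2 fold change of -0.29 at 24 hours against time 0 (edgeR adjusted p = 2.79e-05), under the 1.5-fold threshold. Its mean level was 246 ± 5.26 CPM at time 0, 225 ± 3.30 at 12 hours and 199.9 ± 7.45 at 24 hours (SD, n = 3). The summed level of the 9 chaperones was 8894 to 9330 CPM at time 0 and 13124 to 13821 CPM at 24 hours, and that of the coregulators 1570 to 1608 and 1304 to 1308 CPM. The 8 genes together had a summed level of 1499 to 1532 CPM at time 0, and 977 to 1019 CPM after 24 hours. Fkbp5 was the largest part of this sum, with a mean of 789 and 484 CPM, and Hoxb13 went the other way.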
